A study of Canis lupus familiaris with 20 samples.

Results

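Exosomes of the dog osteosarcoma line OS-2 were compared with exosomes of 4 other osteosarcoma lines over all genes of the deposited table. The comparison used 12 exosome libraries, chosen by their labels alone, of the 20 libraries in the series. There were 2 libraries of OS-2, 4 of OS-1 and 2 each of OSCA-32, OSCA-78 and OSCA-8. The table held 24579 gene identifiers, of which 24079 had a count in at least 1 of these libraries. RNA was sequenced from exosomes in culture supernatants and, for every line but OSCA-32, from the cells, with 2 libraries per line. The study looked for a set of exosomal genes that marks this bone tumour in dogs. The labels give no treatment, genotype, time or culture medium for any line, so the results speak for these lines only. They do not say that replicates came from separate cultures. The p-values therefore rest on the spread among libraries, and that spread may be technical.

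Exosomes are small membrane vesicles that form inside endosomes and leave the cell when these fuse with the plasma membrane. They carry proteins, lipids and RNA of the releasing cell, including fragments of messenger RNA and non-coding RNA, and tumour cells shed them into culture medium and blood. ExoQuick, the reagent used here, precipitates vesicles together with other particles, and the RNA then went through a kit for exosome RNA and a stranded total RNA library kit for low input. A lower value in such a bulk library can come from fewer vesicles carrying an RNA or from less of it per vesicle, and these cannot be told apart.

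Total counts ran from 259078 to 481487 in the exosome libraries, with OS-2 at 481487 and 453481, and from 7728553 to 13301840 in the cell libraries. Taking 3 counts as the limit that a count of 0 allows, a gene without a count could still stand at up to 6.23 to 11.6 CPM (counts relative to the library total) in an exosome library and 0.226 to 0.388 CPM in a cell library. In 5 of the 10 libraries of other lines the 10 most abundant genes took only 1.63% to 2.82% of the counts, against 14.4% to 28.2% in the other 5. These low libraries were both of OSCA-32, OSCA-78 replicate 3 and OS-1 replicates 3 and 4, and results are given with and without them where they matter. Identifiers could not be matched to symbols, so genes are described by identifier, rank or group, and markers of bone, blood, immune, epithelial or endothelial cells could not be examined.

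The RNA of OS-2 exosomes was concentrated in a few genes. The most abundant gene took 32.3% of the counts in OS-2 replicate 1 and 26.5% in replicate 2, against a lowest share of 0.460%, a median of 5.01% and a highest share of 15.6% in the libraries of other lines. The 10 most abundant genes took 57.1% and 62.7% in OS-2, against 1.63%, 8.60% and 28.2% in the others (lowest, median and highest). Both OS-2 libraries stood above all 10 others in each of these shares, and the ranges did not overlap. The effective number of genes, which is the number of equally abundant genes that would give the same diversity, was 200.4 and 133.9 in OS-2 and 2341 to 12700 in the others, with a median of 9041.

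Fewer genes were detected in OS-2 exosomes, although these libraries were among the 3 deepest. There were 17636 and 16565 genes with a count, against 19694 to 21281 in the others. Thinned to the smallest total of 259078 counts, the numbers were 15888 and 14874 against 19370 to 20431. A difference remained with the few most abundant genes left out. What part the abundant genes that stayed in had in it was not tested. With the 7 genes that exceeded 1% of any exosome library left out (called dominant below) and all libraries thinned to 177237 counts, OS-2 had 17185 and 16558 genes and the others had 19200 to 19569. The effective number of genes outside the dominant ones was 6511 and 5577 in OS-2 and 11735 to 13157 in the others. In each of 12 such measures of library make-up OS-2 was first or last of the 5 lines, and the 2 OS-2 libraries differed from the 10 others with an exact two-sided permutation p of 0.0152 (adjusted p = 0.0152 over the 12 measures). That is the smallest value that 66 splits of libraries can give, and with lines as units 1 against 4 cannot go below 0.2. The 12 measures overlap and are not separate results. The dominant genes were also chosen with OS-2 included. The fifth of them passed 1% only in OS-2 and reached at most 0.971% elsewhere, so the test of their share is not independent of that choice. Without the 5 low libraries the difference in the share of the 10 most abundant genes was 39.5 percentage points in place of 48.6. The exact permutation p was 0.0476, the smallest that 2 libraries against 5 can give.

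**Figure D1:**
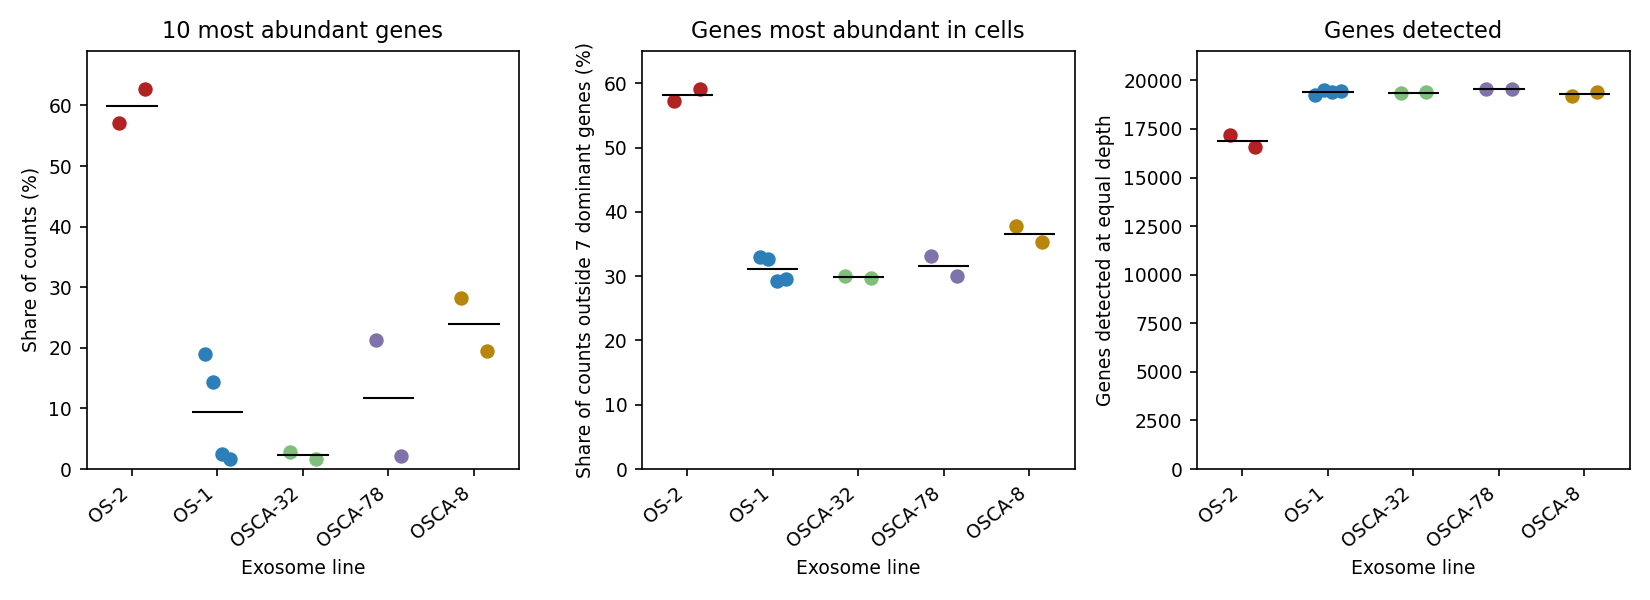
Each point is 1 exosome library and each bar the mean of a line. The panels give the share of counts in the 10 most abundant genes (%), the share of counts outside the 7 dominant genes that fell on the group of genes most abundant in cells (%), and the number of genes detected at equal depth without the dominant genes. The OS-2 libraries lie at 57.1% and 62.7%, at 57.2% and 59.1%, and at 17185 and 16558 genes, outside the range of the 10 other libraries in every panel.

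The 7 dominant genes together took 55.6% and 60.9% of the OS-2 libraries and 0.750% to 27.4% of the others. The first of them, at 32.3% and 26.5% of OS-2, ranged from 0.0274% to 15.6% elsewhere, with a median of 4.49%. That range held 2 separate sets, since the gene took 0.0274% to 0.0640% in the 5 low libraries and 8.91% to 15.6% in the other 5. It made up 0.0472% of the OS-2 cell counts and at most 0.0888% of those of another line. The third gene by OS-2 level took 5.31% and 4.88% in OS-2, against 0.000247% to 3.04% in the others. It was split the same way, at 0.000247% to 0.00539% in the low libraries and 1.90% to 3.04% in the rest. The fourth took 4.17% and 5.39%, against 0.166% to 1.29%, and the fifth took 2.85% and 3.82%, against 0.156% to 0.971%. These 4 and the second gene, which is described below by its identifier, were higher in both OS-2 libraries than in any other. That order of libraries is not a call, and the first gene was not among those called higher in the gene-by-gene test below.

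The last 2 dominant genes did not separate OS-2 from the other lines. The sixth took 0.265% and 1.44% in OS-2 and 0.156% to 1.11% in the others, and the seventh took 0.948% and 0.0148% in OS-2 and up to 1.80% in the others. Abundant genes also differed between the OS-2 replicates. Of 9 genes at 5000 CPM or more in either OS-2 library, 2 differed by over 10-fold between the replicates, and the largest ratio was 161.

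Gene by gene, OS-2 exosomes were set against the mean of the 4 other lines, each line weighing the same. Of 15083 genes tested with edgeR's quasi-likelihood test, 1984 were higher in OS-2 (13.2% of those tested) and 880 were lower (5.83%) at an adjusted p under 0.05. The median log2 fold change was 2.07 among the genes called higher, -1.98 among those called lower and -0.21 over all genes. Among the calls, 431 genes were higher and 226 lower by more than 8-fold. Both OS-2 libraries lay above all 10 others for 2176 genes (14.4% of those tested), and 1819 of these were called higher. Both lay below all others for 1858 genes (12.3%), and 813 of these were called lower.

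The split between higher and lower depended on the scaling. TMM, the scaling used, multiplied the OS-2 totals by 0.409 and 0.350 and those of the others by 0.942 to 1.38. Of all calls, 69.3% were higher with TMM, 73.9% with RLE scaling and 56.8% with upper quartile scaling. With total counts and no factor 592 genes were higher and 10479 lower, the higher calls were 5.35% of all, and the median of all genes moved to -1.85. With the dominant genes left out and scaling to the counts that remained, 1464 were higher and 3466 lower (29.7% of calls higher), with a median of -0.74. Gene groups are therefore set below against the median over all genes. The number of genes lower also rested on both OS-2 libraries, since it was 359 without OS-2 replicate 1 and 272 without replicate 2. Without the 5 low libraries there were 2037 genes higher and 868 lower of 13928 tested.

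**Figure D2:**
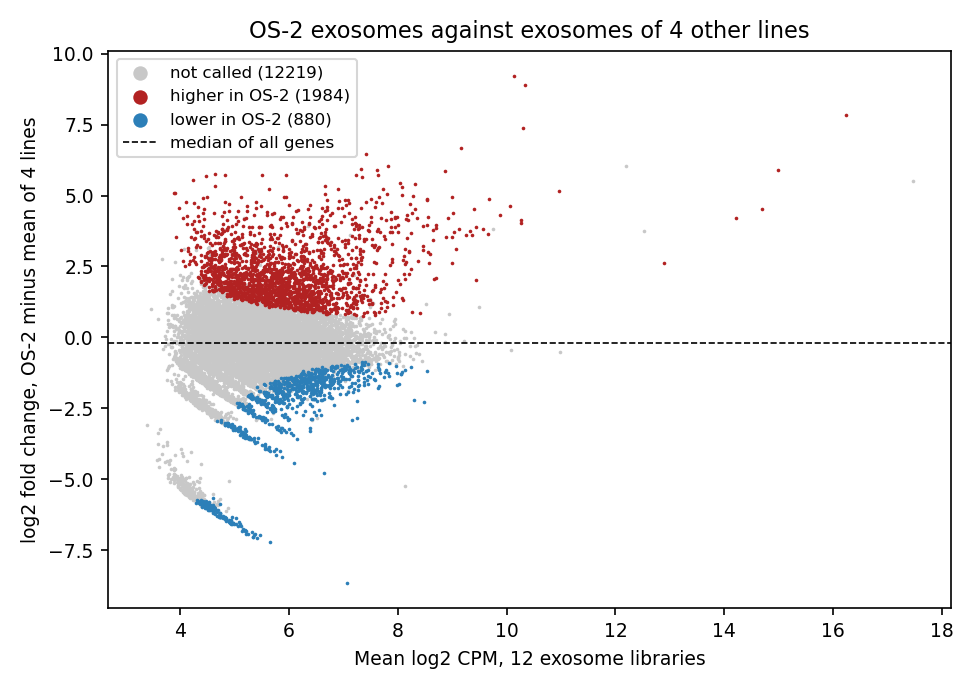
Each point is 1 of 15083 genes tested, with its mean log2 CPM over 12 exosome libraries on the horizontal axis and its log2 fold change (OS-2 minus the mean of 4 lines, TMM scaling) on the vertical axis. Red points are the 1984 genes called higher, blue points the 880 called lower and grey points those not called. The dashed line is the median of all genes at -0.21, and the separate cloud at the bottom left holds genes with no count in OS-2.

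With TMM scaling, 1548 of the 1984 genes called higher in OS-2 exosomes were among those most abundant in the cells. Genes were divided into 5 equal groups by their mean CPM in the cells of 4 lines, with group 5 from 62.0 to 12985 CPM, plus the 5768 genes with no count in any cell library. In group 5, 1548 of 3693 genes tested were higher in OS-2 exosomes (41.9%) and 65 were lower (1.76%), against 13.2% and 5.83% over all genes. Under total counts these were 522 higher and 1738 lower, and with the dominant genes left out 1159 and 417. In group 4, 359 of 3337 were higher (10.8%) and 118 lower. In groups 1, 2 and 3 there were 2, 16 and 58 genes higher and 183, 224 and 178 lower. Of 1218 genes tested that had no count in cells, 1 was higher and 112 were lower (9.20%). These 1218 were the part of the 5768 that passed the count filter, against 3693 of 3763 in group 5. The filter came before TMM scaling, on which OS-2 levels rise most, so a scarce gene passed more readily through another line. How far this tilted the scarce groups toward lower calls was not tested.

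With the median over all genes subtracted, the median log2 fold change climbed from -0.80 in genes with no cell count through -0.58, -0.52, -0.19 and 0.28 to 1.01 in group 5. Taken from log2 CPM per library without the fit, the group 5 value was 0.87 for OS-2 replicate 1 and 0.98 for replicate 2, each against the mean of the line means (SD 0.081, n = 2). In the fit it was 0.97 without OS-2 replicate 2 and 1.11 without replicate 1. Under total counts the group 5 median itself turned to -0.86, below 0, but stayed 0.99 above the median of all genes. With groups drawn only from cells of the lines other than OS-2, the group 5 value was 0.96. Without the 5 low libraries it was 0.95, with 1574 of 3694 genes higher and 103 lower.

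The order continued within group 5, which was divided by level into 4 equal parts. In the lowest part, from 62.0 to 83.4 CPM in cells, 23.5% of genes tested were higher in OS-2 exosomes, with a median of 0.58 relative to all genes. In the next parts these were 31.9% and 0.78, then 44.9% and 1.08. In the top part, at 195 CPM or more in cells, 624 of 936 genes were higher (66.7%), with a median of 1.94. This top part took 31.3% and 33.5% of the counts outside dominant genes in OS-2, against 7.87% to 15.6% in the other libraries. The lowest part took 6.40% and 6.29% in OS-2 against 6.44% to 6.87% in the others, so the OS-2 share was larger in the genes most abundant in cells and not in the lowest part.

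**Figure D3:**
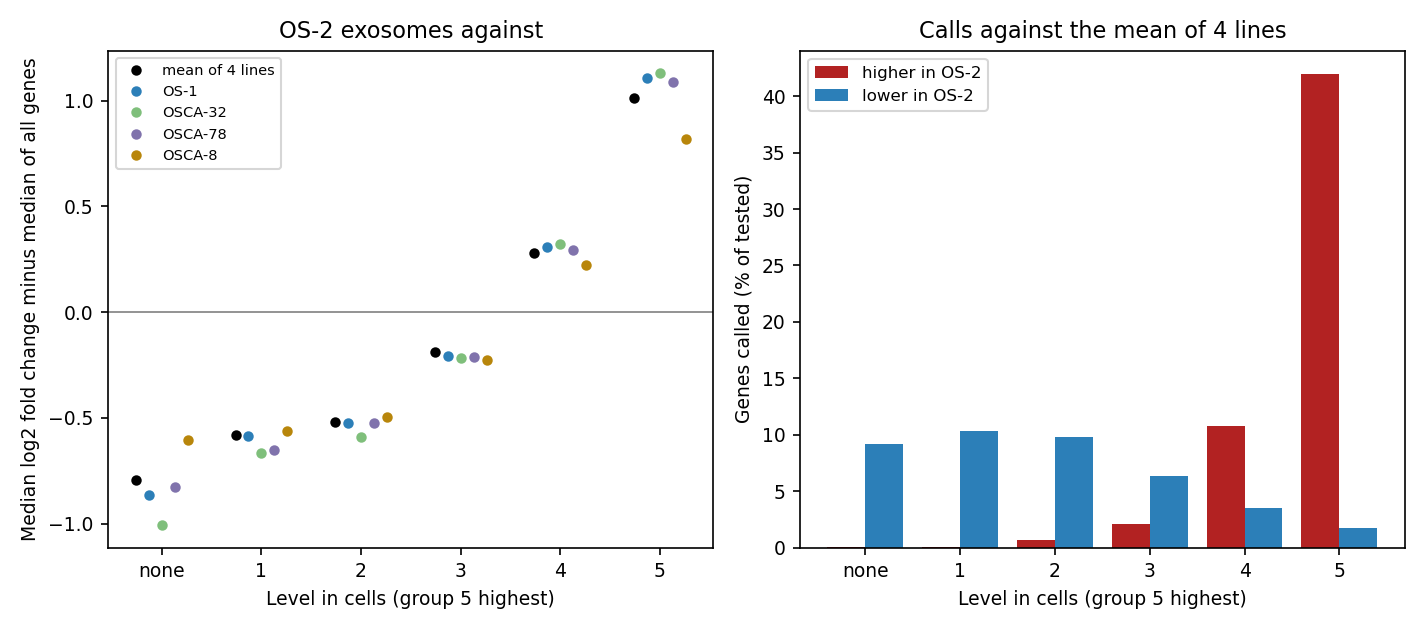
Left, the median log2 fold change of each group of genes by level in cells (none to group 5, the most abundant) minus the median of all genes, for OS-2 exosomes against the mean of 4 lines (black) and against each line (colours). Right, the share of tested genes called higher (red) and lower (blue) against the mean of 4 lines (%), with TMM scaling. Medians climb from -0.80 to 1.01 and calls higher reach 41.9% in group 5.

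Shares of the counts showed the same division without a fitted model. Outside the dominant genes, group 5 took 57.2% and 59.1% of the counts in the OS-2 exosome libraries, and in the others 29.3% at the lowest, 31.4% at the median and 37.9% at the highest. In the cell libraries group 5 took 78.5% to 82.6%, so OS-2 exosomes lay between the other exosomes and the cells. Genes with no cell count took 3.09% and 2.82% in OS-2 exosomes and 5.33% to 7.39% in the others. Group 1 took 4.31% and 5.08% against 8.96% to 10.8%, and in cells at most 0.0356%. Groups 2, 3 and 4 were also lower in OS-2, with group 4 at 17.2% and 16.6% against 19.7% to 21.3%. In none of the 6 groups did the OS-2 libraries overlap the others (exact two-sided permutation p = 0.0152 in each, before and after adjustment over the 6). That is the smallest value these libraries can give. The 6 shares together make up the whole, so a larger share of group 5 lowers the rest, and the 6 results are not separate.

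**Figure D4:**
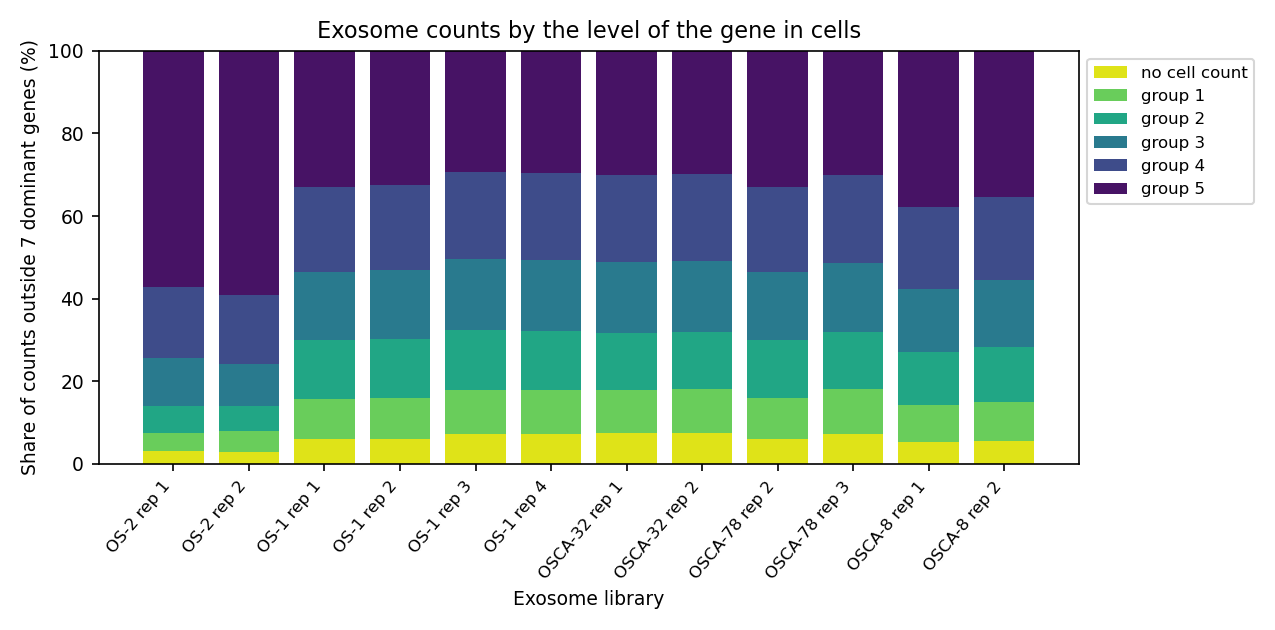
Stacked bars give, for each of 12 exosome libraries, the share of counts outside the 7 dominant genes (%) that fell on genes of each level in cells, from no cell count to group 5. Group 5 fills 57.2% and 59.1% of the OS-2 libraries and 29.3% to 37.9% of the others.

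Across genes detected in cells, Spearman's rho between an exosome library and the mean level in cells was 0.69 in both OS-2 libraries and 0.41 to 0.54 in the others. It was 0.41 to 0.42 in the 5 low libraries and 0.46 to 0.54 in the remaining 5, so the low libraries were also the least like cells. These values are across genes, which are not independent replicates. The match was not closest to the cells of the same line in both libraries. OS-2 replicate 1 gave a rho of 0.662 with OS-2 cells and 0.665 to 0.669 with the cells of the other lines, and replicate 2 gave 0.673 with OS-2 cells and 0.661 to 0.670 with the others. What part this likeness to cells had in the gene calls was not tested.

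Genes scarce in cells were missing more often from OS-2 exosomes. Of the genes with no cell count, 56.4% had no count in either OS-2 library, and of group 1 29.9%, but of group 5 only 0.186%. At equal depth without dominant genes, 57.9% of genes without a cell count were missing from both OS-2 libraries and 34.0% to 39.8% from a pair of libraries of another line. For group 1 these were 31.3% against 15.9% to 19.0%. At this depth 5307 genes had no count in either OS-2 library, against 2984 to 3423 in OSCA-32, OSCA-78 and OSCA-8 and 1901 in OS-1. Of the 5307 genes, 246 had at least 1 count in each of the 10 other libraries. The same pattern was found for 39 genes in OSCA-32, 21 in OSCA-8, 19 in OSCA-78 and 3 in OS-1, the last with 4 libraries. In 9 genes absent from OS-2 every other library had at least 5 counts, and no gene had this pattern in another line. In the other direction there were 9 genes found only in OS-2, 21 only in OSCA-32, 19 only in OSCA-8, 8 only in OSCA-78 and 4 only in OS-1. Absence here means below the limit for a count of 0.

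Calls against single lines are given side by side, since their order by number turned with the setting. Compared with OSCA-32, 1794 genes were higher in OS-2 (11.9%) and 1111 were lower (7.37%). Compared with OS-1 there were 1793 higher (11.9%) and 841 lower (5.58%). Against OSCA-78 they were 1405 (9.32%) and 585 (3.88%), and against OSCA-8 980 (6.5%) and 300 (1.99%). Group 5 was higher relative to all genes in each contrast, by 1.13 against OSCA-32, 1.11 against OS-1, 1.09 against OSCA-78 and 0.82 against OSCA-8. These contrasts share the OS-2 libraries and are not independent, and OS-1 had more libraries than the rest. The difference between contrasts was not tested. There were more calls in all against OSCA-78 than against OSCA-8 (1990 and 1280), but with the replicate number as a block there were 1888 and 2009, and without the 5 low libraries 1833 and 2259. OSCA-32 had more calls than OS-1 (2905 and 2634), but fewer under total counts (10272 and 11093) and with the dominant genes left out (4642 and 4755). Leaving out single libraries moved the calls by over 1.5 times. Without OS-2 replicate 1 and without replicate 2 there were 1618 and 1457 calls against OS-1, 1761 and 1639 against OSCA-32, 1236 and 1056 against OSCA-78, and 717 and 600 against OSCA-8. Calls also fell to 1588 and 1638 against OSCA-32 without its replicates 1 and 2, to 953 against OSCA-78 without its replicate 3, and to 537 and 383 against OSCA-8 without its replicates 1 and 2.

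Distances between libraries placed OS-2 apart from the other exosomes. The root mean square difference in log2 CPM was 1.11 between the 2 OS-2 libraries, 1.21 to 1.64 from OS-2 to another line and 0.578 to 1.08 among the other 10 libraries. The OS-2 replicates were thus further from each other than any 2 libraries of other lines. At equal depth without dominant genes this no longer held, and the values were 0.811, 1.08 to 1.44 and 0.674 to 1.02. The library nearest to both OS-2 libraries was OSCA-8 replicate 1. The first principal component held 43.9% of the variance and put OS-2 at -109 and -128 and the others between -20.9 and 58.2.

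A pair of genes called higher and a pair called lower are given by identifier, chosen by fold and by level. Among the genes called higher and above all other libraries, the largest fold was that of ENSCAFG00000032696. Its counts were 1271 and 972 in OS-2, 270 and 42 in OSCA-8, 3 and 35 in OSCA-78, 0 and 0 in OSCA-32, and 1, 3, 0 and 0 in OS-1. The OS-2 libraries were well above the rest, OSCA-8 came next, and no library of OSCA-32 had a count. On the TMM scale the level was 6592 and 6235 CPM in OS-2 and 0 to 765 CPM in the others, with a median of 5.61. The log2 fold change was 9.21 ± 0.68 (SE; adjusted p by edgeR 8.27e-10), and the size depends on the prior count because 4 libraries were at 0. Against OSCA-8 alone it was 3.87 (adjusted p = 0.00899). Each SE given here and below is the size of the log2 value divided by the square root of the F statistic. It is thus derived from the test and not estimated directly. This gene had no count in any of the 8 cell libraries, and it was the only gene of those without a cell count to be called higher.

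Among the genes called higher, the highest level in OS-2 was that of ENSCAFG00000029369, the second of the dominant genes. It took 9.80% and 18.9% of the OS-2 libraries. Its counts were 47187 and 85756 in OS-2, 18183 and 20 in OSCA-8, 21276 and 4 in OSCA-78, 2 and 0 in OSCA-32, and 5075, 25, 0 and 0 in OS-1. Within OS-1, OSCA-78 and OSCA-8, 1 library held over 5000 counts and the others few or none. The OS-2 libraries stood at 244744 and 550122 TMM-scaled CPM and the others at 0 to 65154, so the groups did not overlap. The log2 fold change was 7.85 ± 2.50 (SE; adjusted p by edgeR 0.0257), and no contrast with a single line was called (adjusted p 0.0577 to 0.591). The call was lost without OS-2 replicate 1 or 2 (adjusted p 0.137 and 0.283), OSCA-32 replicate 1 or 2 (0.115 and 0.131), OSCA-78 replicate 3 (0.103) or OSCA-8 replicate 2 (0.0955). Without the 5 low libraries the log2 fold change was 4.0 (adjusted p = 0.484). In the cells it had 0 to 4 counts per library, apart from 346 in OSCA-8 cell replicate B.

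Among the genes called lower, the largest fitted fold was that of ENSCAFG00000005986. It had no count in either OS-2 library, 15 and 19 in OSCA-8, 21 and 89 in OSCA-78, 113 and 145 in OSCA-32, and 29, 16, 146 and 152 in OS-1. Every other library held it, at 40.3 to 278 TMM-scaled CPM with a median of 137. Taking 3 counts over both OS-2 libraries as the limit (8.60 TMM-scaled CPM), its level in OS-2 was at least 16.6-fold lower than the mean over lines, 142.8. The edgeR adjusted p was 0.0251, and it rose to 0.144 without OS-2 replicate 1 and to 0.127 without replicate 2. Against single lines the gene was called lower for OS-1, OSCA-32 and OSCA-78 (edgeR adjusted p 0.0198, 0.0128 and 0.0463). It was not called against OSCA-8 (0.174). In cells it was found only in OSCA-8, with 2 counts in each library.

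The highest level among the genes called lower was that of ENSCAFG00000020243, a group 5 gene. Counts were 40 and 21 in OS-2, 116 and 160 in OSCA-8, 173 and 334 in OSCA-78, 136 and 150 in OSCA-32, and 167, 172, 159 and 166 in OS-1. On the TMM scale OS-2 stood at 207 and 135 CPM, below all others at 255 to 631 (median 375). Against single lines the gene was called lower for OS-1 and OSCA-78 (edgeR adjusted p 0.0429 and 0.00903). It was not called against OSCA-32 or OSCA-8 (0.316 and 0.125). The log2 fold change against the mean of the 4 lines was -1.19 ± 0.39 (SE; adjusted p by edgeR 0.0290). The adjusted p was 0.214 without OS-2 replicate 2, 0.0501 without OSCA-32 replicate 1 and 0.0550 without OSCA-32 replicate 2.

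In the cells ENSCAFG00000020243 went the other way. It stood at 152 and 249 TMM-scaled CPM in OS-2 cells, against 69.4 and 63.8 in OSCA-8, 176 and 122 in OSCA-78, and 69.4 and 61.5 in OS-1. OS-2 and OSCA-78 overlapped and lay above OS-1 and OSCA-8. The log2 fold change in cells, OS-2 against the mean of 3 lines, was 1.21 (edgeR adjusted p = 0.0227), but 0.81 (adjusted p = 0.269) without OS-2 cell replicate B. It was also lost without OSCA-78 cell replicate B (adjusted p = 0.0528) and without OSCA-8 cell replicate B (0.0510). The difference between the fractions, exosomes minus cells, was -2.74 ± 0.52 on the log2 scale (SE; adjusted p by edgeR 0.00212). This test uses again the exosome libraries by which the gene was picked as lower, so its exosome side was selected to be negative.

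**Figure D5:**
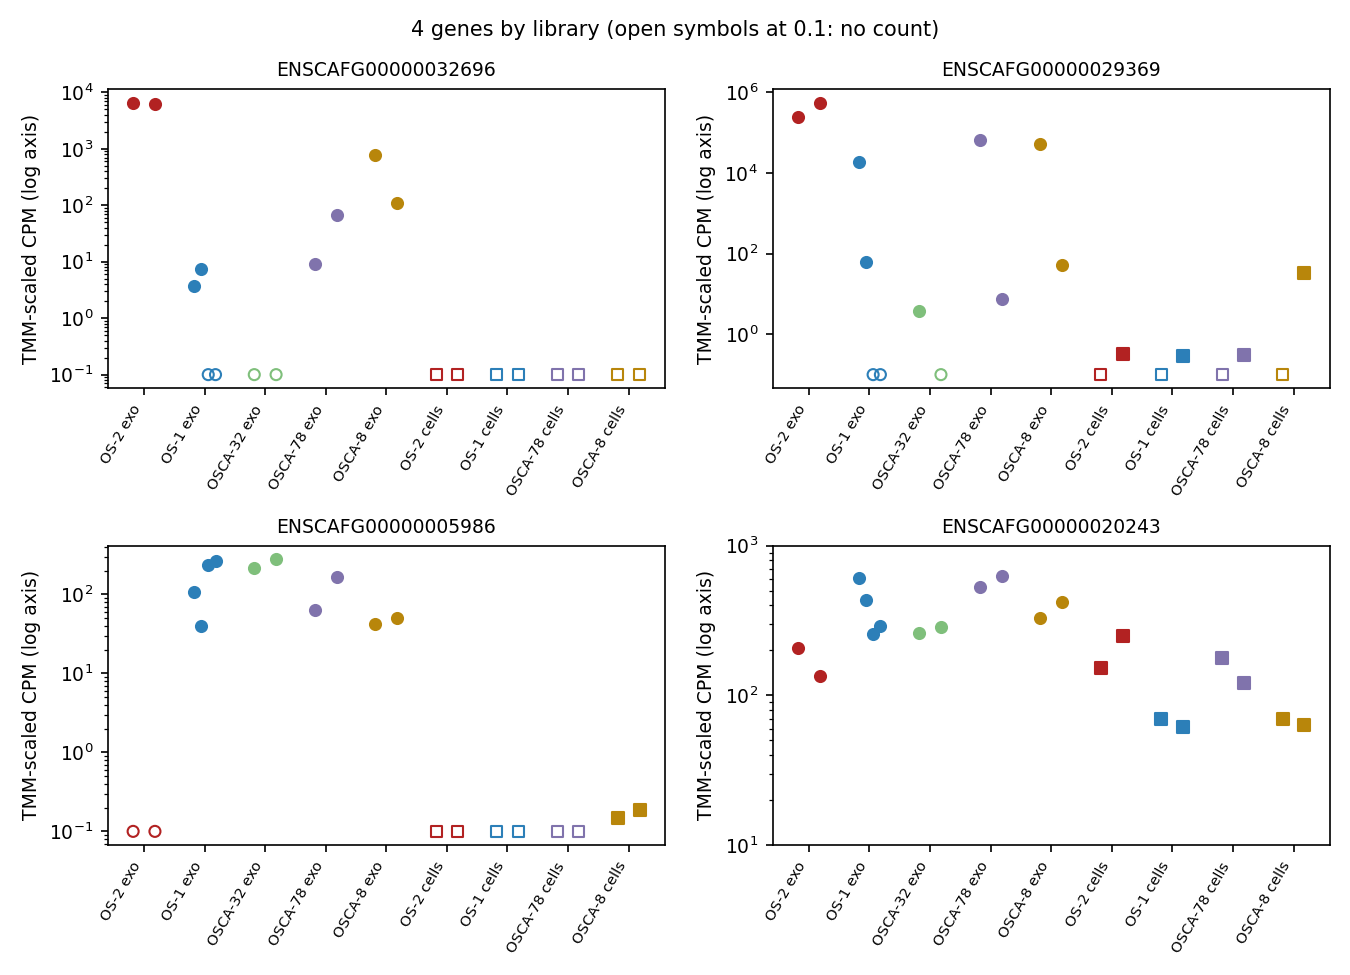
Levels of 4 genes in TMM-scaled CPM (log axis) by library, with circles for exosomes, squares for cells and open symbols at 0.1 for libraries with no count. OS-2 exosomes lie at 6592 and 6235 CPM for ENSCAFG00000032696 and at 207 and 135 CPM for ENSCAFG00000020243, above and below all other exosome libraries. OSCA-32 has no cell libraries.

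The third gene by fold was singled out after its values were seen, because it was as uneven in the cells. Its counts were 1129 and 1417 in OS-2 exosomes and 11 to 43 in the other exosome libraries, or 5856 and 9090 against 20.8 to 157 TMM-scaled CPM. The log2 fold change was 7.37 ± 0.49 (SE; adjusted p by edgeR 2.91e-12). In OS-2 cells it had 79866 and 149751 counts, against 2 to 618 in the cells of other lines. The log2 fold change in cells was 10.59 ± 1.27 (SE; adjusted p by edgeR 0.00534). The difference, exosomes minus cells, was -3.61 (edgeR adjusted p = 0.0935) and did not pass the threshold, nor did it with the letters of the cell libraries as a block (-4.05, adjusted p = 0.0523). It passed under total counts (-4.95, 0.0194), with limma voom (-4.10, 0.0161), without OS-1 cell replicate A (-5.75, 0.00081) and without OS-1 cell replicate B (-3.25, 0.0209).

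Group 5 held 24.5% of all genes tested, 1548 of the 1984 called higher and 7.39% of those called lower. Of the 20 higher by the largest fold, with log2 fold changes of 5.24 to 9.21, 17 belonged to group 5 and 4 of 18 tested were also called higher in OS-2 cells, where 6.92% of all genes tested were. Of the 20 lower by the largest fold, none belonged to group 5, 14 were in groups 1 and 2 or without a cell count (59.0% of all genes called lower and 34.9% of those tested), and all 20 had no count in OS-2. The 20 genes that were lower by level were nearer in size, with log2 fold changes of -2.27 to -0.90, and 6 of them belonged to group 5, near the share of group 5 among all genes tested. Among all 880 genes called lower, 128 had no OS-2 count and 342 had 3 or fewer over both libraries, so that much of this side rests on few counts.

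The same contrast in the cells asked which of these differences were present in the line itself. Of 14148 genes tested in cells, 979 were higher in OS-2 (6.92%) and 1007 were lower (7.12%). Replicate letters paired the cell libraries, and with the letter as a block there were 1476 higher (10.4%) and 1623 lower (11.5%). These counts rested on single libraries, with 117 higher and 122 lower without OS-2 cell replicate B and 394 and 401 without replicate A. Without OSCA-78 cell replicate A they were 520 and 497, and the number lower was 561 without OSCA-78 cell replicate B and 670 without OSCA-8 cell replicate A.

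Most genes that differed in OS-2 exosomes were not called in OS-2 cells. Of 1975 genes higher in exosomes and tested in both, 287 were higher in cells (14.5%) and 21 lower (1.06%), against 7.39% and 7.66% of all 11591 genes tested in both. Of 533 genes lower in exosomes, 119 were lower in cells (22.3%) and 13 higher, with a median log2 fold change in cells of -1.04. With the block the shares were 21.6% and 31.3%. Counted from the cells, 33.5% of the 856 genes higher there were higher in exosomes and 13.4% of the 888 lower there were lower. Beside these, 1975 of all 11591 genes tested in both were higher in exosomes and 533 were lower.

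The same held inside group 5, where all genes are abundant in cells. Of its 1548 genes called higher in exosomes of OS-2, 12.5% were higher and 1.23% lower in OS-2 cells. Of the 65 lower in exosomes, 3.08% were higher and 38.5% lower. Of the 2080 not called in exosomes, 6.59% were higher and 6.92% lower, and over all of group 5 the shares were 9.02% and 5.09%.

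A direct test of the difference between fractions used 18 libraries of the 4 lines with cells. Of 16211 genes, edgeR called the OS-2 difference higher in exosomes than in cells for 1580 (9.75%) and lower for 617 (3.81%). With the letters of the cell libraries as a block there were 1927 (11.9%) and 803 (4.95%). Group 5 held 859 of the genes higher and 86 of those lower, of 3763 tested. Without OS-2 cell replicate B the counts were 628 and 274, without OS-2 exosome replicate 1 they were 823 and 279, and without replicate 2 they were 875 and 298. With total counts they turned to 557 and 3578, and without the 5 low libraries the number lower was 392.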

How the data were processed

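Exosomes were enriched with ExoQuick, a SeraMir ExoRNA kit gave the RNA and a SMARTer Stranded Pico kit the libraries, per the labels' protocols. The authors deposited whole-number read counts per gene. The submitters' processing notes list the builds CanFam3.1 and GRCm38.p5 and the tools kallisto 0.43.0, FastQC 0.11.5 and Trimmomatic 0.33.0. The deposited table's name refers to Subread. For the counting tool, strand setting and shared reads, details were not given in the sources used here. Counts of overlapping or near-identical genes are thus uncertain. Limits for a count of 0 reflect counting error alone, as no molecular identifiers are described. The table had 1 column, headed as OSCA-78 exosome replicate 1, that matched no sample label and was left out.

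Libraries were grouped by title. The main test was edgeR's quasi-likelihood test (R 4.3.3, edgeR 4.0.16, limma 3.58.1) after TMM scaling and filterByExpr at a minimum count of 10. Dispersions were robust, p-values were adjusted by Benjamini-Hochberg at 0.05, and the fit had a coefficient per line (12 exosome or 8 cell libraries) or per line and fraction (18). The test was also run on simulated data with equal numbers of genes raised and lowered in OS-2. That simulation did not include the concentration of OS-2 counts in a few genes. Library measures were compared by exact permutation. Thinned values are draws at a fixed seed. For distances and components the prior count of log2 CPM was 2.

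The comparison, gene groups and lists were chosen with earlier results of these data known. Genes were named by rule, among calls with both OS-2 libraries beyond all others: the largest fold, where the mean log2 CPM was 5 or more, and the highest level. None of 24579 identifiers matched the RefSeq table (0 matches), so 16 gene lists were not tested.

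The lowest chi-square per degree of freedom between replicates was 1.83, so none was taken as a copy. In cells, deviations by letter correlated between lines at 0.174 to 0.482 (6 of 6 pairs), so letters were taken to pair libraries, from the data and not the labels. Alternatives were other scalings, filters, tools (DESeq2 1.42.0, limma voom), thinning, the replicate block, other groupings and leaving out libraries. Leaving out the 5 libraries with a top-10 share under 3% was chosen after seeing the data, as was the block of cell letters in the fit of 18 libraries.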

Additional observations from a re-analysis of the deposited data

Results flagged for a closer look

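For ENSCAFG00000029369, the level of OS-1 exosome replicate 1, at 18528 TMM-scaled CPM, lay far from the other 3 OS-1 exosome libraries, which had 25, 0 and 0 counts. For independent values, the limit used is passed by chance in about 1 of 20 groups. OSCA-78, with 21276 and 4 counts, and OSCA-8, with 18183 and 20, were as uneven but had too few libraries to be examined in this way.

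For ENSCAFG00000020243, the OS-2 difference went down in exosomes and up in cells, and the test of the difference between fractions gave -2.74 on the log2 scale (edgeR adjusted p = 0.00212). It held in 26 of 26 alternatives, between -4.09 and -2.31. The gene was picked for its low level in the OS-2 exosome libraries, which this test uses again. The result and its stability are therefore not independent of that choice.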

How the results depend on the processing

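More genes were lower than higher under total counts and with the dominant genes left out, with and without the 5 low libraries, and the order of lines by number of calls turned as given above. The fitted values of the 4 named genes and the group 5 value relative to all genes kept their sign in the alternatives run. The count of genes called lower against the 4 lines moved in many of them. It was 1355 with upper quartile scaling, 10479 with total counts (592 higher), 3466 with the dominant genes left out, 344 with DESeq2, 262 with limma voom, 484 after thinning and 555 without OSCA-32. Without the 5 low libraries it was 8920 with total counts (615 higher) and 3288 with the dominant genes left out (1393 higher). Leaving out 1 library gave 1359 to 2150 higher and 272 to 981 lower. Calls against OS-1, OSCA-32, OSCA-78 and OSCA-8 were 11093, 10272, 9501 and 6950 with total counts and 4755, 4642, 3558 and 2085 without dominant genes. Without the low libraries and with total counts, calls against OS-1, OSCA-78 and OSCA-8 were 9047, 6726 and 7945, and with dominant genes left out as well they were 4043 against OS-1 and 3414 against OSCA-8. Against OSCA-8 there were 2259 calls without the low libraries. Leaving out 1 library gave 1457 to 2848 calls against OS-1, 1588 to 3202 against OSCA-32, 953 to 2085 against OSCA-78 and 383 to 1459 against OSCA-8. Among OS-1, OS-2, OSCA-32 and OSCA-8 exosomes, deviations by replicate number did not correlate between lines (-0.0113 to 0.0181, 6 pairs). OSCA-78, with replicates 2 and 3, was not examined in this way. Replicate 3 was a low library in both OS-1 and OSCA-78, so pairing by number is not settled for all exosome libraries. With the replicate block there were 2063 genes higher and 942 lower than the mean and 2009 calls against OSCA-8. The group 5 value relative to all genes was 1.15 with no filter, 0.91 without the low libraries and dominant genes, and 0.97 to 1.11 leaving out 1 library. OS-2 minus the others was 45.8 to 51.4 percentage points for the 10 most abundant genes, -5109 to -4154 genes detected and -8815 to -7664 for the effective number, leaving out 1 library. With 1 OS-2 library the exact permutation p was 0.0909, the smallest that 1 against 10 allows. In cells, the block gave 1476 higher and 1623 lower, limma voom 1536 and 1594, and DESeq2 2126 lower, and leaving out 1 library gave 117 to 1167 higher and 122 to 1246 lower. The difference between fractions was 557 higher and 3578 lower with total counts, 617 and 335 after thinning, 928 lower with DESeq2 and 392 lower without the low libraries. Leaving out 1 library gave 628 to 1930 higher and 274 to 711 lower. ENSCAFG00000032696 was called in 27 of 27 alternatives (log2 6.07 to 9.71). ENSCAFG00000029369 lost its call in 15 of 24, among them total counts (edgeR adjusted p 0.0715), no filter (edgeR, 0.171) and limma voom (0.443). The 24 leave out DESeq2, which gave this gene no adjusted p, and the settings without dominant genes, where it was absent. ENSCAFG00000005986 lost its call in 5 of 27 and ENSCAFG00000020243 in 4 of 27. The causes were not tested. At this depth a count of 0 in an exosome library allows a level of up to 6.23 to 11.6 CPM.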
